A study of Mus musculus with 2 samples.

Results

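The genes described here are Trem2, Gpnmb, Apoe, Lpl, Cd36, Fabp4, Fabp5, Plin2, Abca1 and Abcg1, 10 of the 27809 genes measured in leukocytes of the mouse heart. They were chosen by name, for their place in the recognition, uptake, storage and release of lipid by macrophages. Macrophages take up lipoproteins, fatty acids and the membranes of dying cells, keep part of the lipid in droplets and pass cholesterol on to carrier particles. TREM2 is a surface receptor that binds lipids and apolipoproteins and signals through the adaptor TYROBP, and GPNMB is a membrane glycoprotein of lysosome-rich macrophages, so both genes are widely used as marks of lipid-laden macrophages. Apolipoprotein E and the transporters ABCA1 and ABCG1 belong to the export side, lipoprotein lipase and CD36 to the uptake side.

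The cells, CD45+ leukocytes, came from hearts of male C57BL/6N mice aged 8 weeks, taken 1 week after sham surgery or after transverse aortic constriction (TAC), a suture around the aortic arch that overloads the left ventricle with pressure. There were 5 groups: WT sham, CD3e-/- sham, WT TAC, CD3e-/- TAC, and WT mice with TAC that were given an antibody to CD8 every 3 days, called CD8 antibody TAC below. CD3e-/- mice lack a subunit of the T cell receptor complex in every cell from birth. The groups were marked with hashtags, mixed, and sequenced as 1 pooled library, so that each group is 1 sample, the number of mice behind a hashtag is not given in the sources used here, and no comparison between groups has a replicate or a test. After filtering, 1000 WT sham, 835 CD3e-/- sham, 1615 WT TAC, 919 CD3e-/- TAC and 894 CD8 antibody TAC cells remained, with a median of 75442 to 117788 reads per cell, and both sham groups were shallower (75442 and 78372) than each group with TAC (98471 or more). Ptprc, which encodes CD45, was read in 96.6% to 98.5% of the cells of a group. Cd3g, a T cell receptor subunit gene, stood at 45.6, 17.5 and 22.5 CPM (reads of a gene per 1000000 reads) in WT sham, WT TAC and CD8 antibody TAC, and at 0.555 and 0.0661 CPM in CD3e-/- sham and CD3e-/- TAC. Reads of Cd3e itself remained in both CD3e-/- groups (3.73 and 5.64 CPM). Cd8a was read in 16 of 1615 WT TAC cells and in 8 of 894 CD8 antibody TAC cells (0.991% and 0.895%). Cd8b1 was read in 12 and 6 of the same cells (0.743% and 0.671%). With so few cells a loss of CD8 T cells was not detectable, and the last group is named by its label only.

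Cells were sorted into classes by their single-cell CPM. A cell with at least 200 CPM of Csf1r and 2000 CPM of Lyz2 was counted as a monocyte or macrophage (3309 cells) and placed as Ly6c2-high (515 cells), Lyve1-positive (192 cells), Ccr2-high (1215 cells) or Ccr2-low (1387 cells), while cells with at least 500 CPM of Cd209a (348 cells) or Cd79a (506 cells) were set apart and 1100 cells were left ungated. Ly6c2 marks recruited monocytes, Lyve1 marks long-lived resident macrophages, and Ccr2 is the chemokine receptor by which monocytes leave the marrow. Genes that the gates did not use served as a check. Plac8 was read in 92.4% of Ly6c2-high and 1.04% of Lyve1-positive cells, and Folr2 in 2.72% and 85.4%. Ms4a1 was read in 91.5% of Cd79a-high cells, in which 6 macrophage marker genes still summed to 95.3 to 1163 CPM. C1qa was read in 100% of Lyve1-positive, 87.0% of Ccr2-low and 70.8% of Ccr2-high cells, so it did not set these apart. Ccr2-low cells also held monocyte marker genes (summed, 355 to 727 CPM) and neutrophil marker genes (47.9 to 409 CPM). Each class is a range on a scale and not a cell type, and 744 of the 3309 cells lay within 2-fold of the Ccr2 limit. The makeup of the monocytes and macrophages differed between groups. Ly6c2-high cells made up 4.38% of them in WT sham and 7.44% in CD3e-/- sham, against 14.5% in WT TAC, 25.1% in CD3e-/- TAC and 23.5% in CD8 antibody TAC. Lyve1-positive cells made up 12.6%, 6.56%, 4.72%, 2.14% and 4.91% in the same order, and the 14 Lyve1-positive CD3e-/- TAC cells were too few to be read as a class.

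The DNA in front of 2 of the genes is shown because Trem2 and Gpnmb are the marks on which the description turns and because their RNA was distributed in different ways, Trem2 across many cells and Gpnmb in a few. RefSeq windows were at hand for 6 of the 10 genes, and those of Trem2 and Gpnmb lie wholly in front of the annotated gene. Each line gives the 250 bases before the transcription start on the plus strand of GRCm38.p6, chr17:48346151-48346400 for Trem2 and chr6:49036268-49036517 for Gpnmb, with matches to 6 short motifs in capitals.
Trem2: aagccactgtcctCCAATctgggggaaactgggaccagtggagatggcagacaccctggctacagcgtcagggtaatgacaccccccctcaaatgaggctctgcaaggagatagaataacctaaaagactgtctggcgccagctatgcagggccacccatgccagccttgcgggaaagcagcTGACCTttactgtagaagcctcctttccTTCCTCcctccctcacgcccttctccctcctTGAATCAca
Gpnmb: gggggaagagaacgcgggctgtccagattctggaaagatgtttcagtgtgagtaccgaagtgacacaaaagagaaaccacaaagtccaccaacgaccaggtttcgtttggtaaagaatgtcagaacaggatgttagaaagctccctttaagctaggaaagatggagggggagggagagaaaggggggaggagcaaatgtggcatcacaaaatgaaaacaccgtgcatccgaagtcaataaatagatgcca
The motifs were searched on both strands. They were the CCAAT box CCAAT, the nuclear receptor half-site AGGTCA, the PU.1 core GAGGAA and the AP-1-like pattern TGANTCA (N for any base). The others were the E-box CACGTG and the TATA box TATAAA. The Trem2 window held the first 4, starting 237, 68, 40 and 9 bases before the start, the half-site and the PU.1 core on the opposite strand. Its AP-1-like match reads TGAATCA. The Gpnmb window held none. Among all 32851 RefSeq windows of this length, 33.8% held the CCAAT box, 14.0% the half-site, 23.3% the PU.1 core, 6.75% the AP-1-like pattern, 6.02% the E-box and 12.4% the TATA box. Each match is thus a description of the letters and not of a bound site.

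After TAC, the monocytes and macrophages of both genotypes held more Trem2, Gpnmb and Apoe RNA and less Lpl and Cd36 RNA than after sham surgery. Levels below are summed reads of a gene over summed reads of all genes in these cells, as CPM, with the exact 95% Poisson interval in parentheses where given. The intervals cover counting error only, and since the matrix counts reads, of which a cell with any Trem2 read held a median of 39, they are far too narrow as errors of a group. The 5 values are always given in the order WT sham, CD3e-/- sham, WT TAC, CD3e-/- TAC, CD8 antibody TAC. A gene was called higher or lower where the ratio of 2 groups passed 2-fold with 10 CPM added to both and 1 of them held at least 50 CPM.

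Trem2 (chr17:48346401-48352276), the receptor, stood at 181 (177 to 184), 147 (143 to 150), 348 (345 to 351), 316 (312 to 319) and 265 (262 to 269) CPM. The 3 TAC groups lay above both sham groups. The TAC to sham ratio was 1.93 in WT and 2.15 in CD3e-/- mice. The difference lay both in the number of cells with a read and in the level within them. With every cell thinned to 30000 reads, the share of monocytes and macrophages with a Trem2 read was 39.4%, 39.8%, 54.4%, 59.1% and 54.7%. The exact 95% binomial intervals of the sham groups (35.2 to 43.8% and 35.2 to 44.6%) did not reach those of the TAC groups (from 50.5% upwards). Within the cells that had a read, Trem2 stood at 410, 327, 550, 465 and 431 CPM. In Cd79a-high cells, B cells that should lack the receptor, Trem2 stood at 0, 1.78, 21.5, 55.8 and 34.5 CPM and was read in 0 of 84 thinned cells in WT sham (exact 95% upper limit 4.30%) and in 1.72% to 12% of them in the other 4 groups, at a lower median depth (43135 to 61437 reads). The B cell value was thus higher in the TAC groups as well, at up to 17.7% of the macrophage level. Its part in the difference was not tested.

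Gpnmb (chr6:49036518-49058182) stood at 87.5, 35.3, 166, 112 and 106 CPM. The TAC to sham ratio was 1.90 in WT and 3.18 in CD3e-/- mice (log2 ratios 0.85 and 1.43). The WT value rests on single cells: its log2 ratio was 0.08 with the 4 classes weighted equally, where 1 of 24 Ly6c2-high WT sham cells carried that class, and 2.15 without the 5 cells of each group with the most Gpnmb reads. In CD3e-/- mice the log2 ratio without those 5 cells was 2.62. Those 5 cells held 80.4% and 96.4% of the Gpnmb reads in WT sham and CD3e-/- sham, but 32.8% and 47.8% in WT TAC and CD3e-/- TAC. Leaving them out thus widens the TAC to sham ratio in itself. This RNA sat in few cells. Only 14 of 548, 8 of 457, 78 of 1059, 40 of 654 and 36 of 591 monocytes and macrophages had a read, and the 5% of cells with the most Gpnmb held 96.6% or more of its reads in each group. In thinned cells the share was 2.69% (1.48 to 4.48%) and 1.60% (0.646 to 3.27%) in the sham groups and 7.41% (5.88 to 9.18%), 6.13% (upper limit 8.29%) and 6.27% (4.43 to 8.58%) in the TAC groups. The cells with a read held 1471, 949, 1369, 1152 and 1152 CPM, so that the WT groups differed in how many cells carried the RNA and hardly in how much each carried. The higher share was found in the Ccr2-low class: 3.15% (1.45 to 5.89%) of thinned WT sham cells and 3 of 200 CD3e-/- sham cells (upper limit 4.32%) against 15.0% (11.6 to 18.9%), 12.7% (8.65 to 17.7%) and 11.8% (7.82 to 17.0%) after TAC. In the Ccr2-high class the same shares were 2.84%, 1.73%, 3.19%, 2.17% and 3.03%, with intervals that overlapped throughout. Whether the 2 classes differ in their response was not tested.

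Apoe (chr7:19696244-19701310), the apolipoprotein, was the most heavily read gene of the set in these cells and stood at 10864, 7622, 18937, 15862 and 14366 CPM. The TAC to sham ratio was 1.74 in WT and 2.08 in CD3e-/- mice, and the TAC groups again lay above both sham groups. Apoe was read in 99.8% or more of thinned monocytes and macrophages, and in 98.9% or more of Cd79a-high cells, so the share of cells with a read says nothing about which cells express it. The Cd79a-high cells held 608, 882, 2125, 3761 and 1397 CPM, or 5.59%, 11.6%, 11.2%, 23.7% and 9.73% of the macrophage level, with a median per cell of 211 to 426 CPM. This background was also higher in the TAC groups, and its part in the difference was not tested.

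Lpl (chr8:68880555-68906932), which encodes the secreted lipase that frees fatty acids from triglyceride-rich lipoproteins, was lower in the TAC groups than in the sham groups, with 900 (892 to 909), 1473 (1463 to 1484), 619 (615 to 623), 407 (403 to 411) and 435 (430 to 440) CPM. The TAC to sham ratio was 0.687 in WT and 0.276 in CD3e-/- mice. The highest level was that of CD3e-/- sham, 1.64 times that of WT sham. The Cd79a-high cells of that group also held the most Lpl, 319 CPM or 21.7% of the macrophage level, against 18.3 CPM (2.03%) in WT sham and 17.3 to 59.7 CPM in the TAC groups, and the part of this in the difference was not tested. Thinned cells with a read made up 53.8%, 69.8%, 47.4%, 45.1% and 43.6%.

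Cd36 (chr5:17781690-17888959), the scavenger receptor and fatty acid translocase, stood at 351, 419, 182, 145 and 141 CPM. The ratio was 0.519 in WT and 0.345 in CD3e-/- mice. Here the share of thinned cells with a read nearly followed the level: 56.9% (52.5 to 61.2%) and 61.8% (57.0 to 66.4%) after sham surgery, against 29.4% (26.7 to 32.3%), 28.0% (24.5 to 31.7%) and 33.6% (29.8 to 37.7%) after TAC. The 3 TAC groups lay below both sham groups for Lpl and for Cd36.

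**Figure D1:**
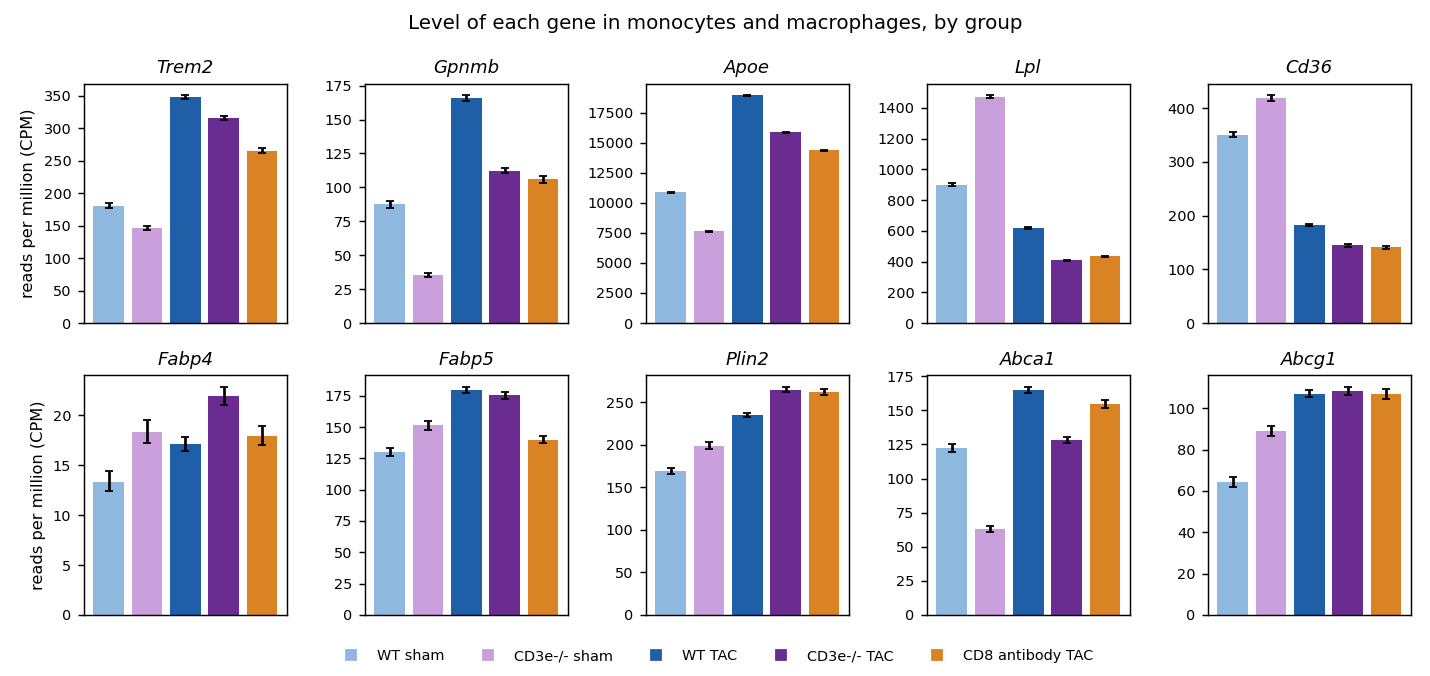
Level of each of the 10 genes in monocytes and macrophages (CPM, 1 panel and 1 axis per gene, from 0), 1 bar per group in the order WT sham, CD3e-/- sham, WT TAC, CD3e-/- TAC, CD8 antibody TAC, with the exact 95% Poisson interval of the summed reads. Trem2, Gpnmb and Apoe are higher and Lpl and Cd36 lower in all 3 TAC groups than in both sham groups, for example Cd36 at 141 to 182 against 351 and 419 CPM.

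The intracellular carriers and the droplet coat differed less. Fabp5 (chr3:10012585-10016610), a fatty acid binding protein, stood at 130, 151, 180, 175 and 140 CPM and was read in 10.6%, 12.1%, 19.2%, 20.8% and 16.6% of thinned cells. Fabp4 (chr3:10204342-10208616), its neighbour on the same chromosome and a gene of adipocytes, capillary endothelium and some macrophages, stood at 13.4, 18.4, 17.1, 21.9 and 18.0 CPM and was under the 50 CPM limit in every group. The matrix lists a near copy of Fabp5, Fabp5l2, with 6 reads in all. Plin2 (chr4:86626910-86670217), which coats lipid droplets, stood at 169, 199, 235, 265 and 262 CPM. Plin2 was read in 38.3% (34.1 to 42.6%), 46.5% (41.7 to 51.3%), 49.2% (46.1 to 52.3%), 65.6% (61.7 to 69.3%) and 55.4% (51.2 to 59.5%) of thinned cells. This was the one gene of the set whose share was highest in CD3e-/- TAC with an interval clear of the other 4 groups.

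Of the cholesterol exporters, Abca1 (chr4:53030789-53159988) stood at 122, 62.7, 165, 128 and 155 CPM and Abcg1 (chr17:31057694-31117984) at 64.3, 88.9, 107, 108 and 107 CPM. The TAC to sham ratio in WT and CD3e-/- mice was 1.35 and 2.04 for Abca1 and 1.66 and 1.22 for Abcg1. With 10 CPM added, Abca1 in CD3e-/- mice lay just under the 2-fold limit (log2 ratio 0.93) and was not called. Its ratios were 2.22 and 2.89 in Ccr2-high, 1.73 and 2.60 in Ccr2-low and 1.67 and 3.42 in Ly6c2-high cells, and 1.08 in Lyve1-positive WT cells. The sham groups were ordered oppositely for the 2 genes, with CD3e-/- sham at 0.513 times WT sham for Abca1 and at 1.38 times for Abcg1. Both RNAs are also known from lymphocytes, and Cd79a-high cells held 53.3 to 132 CPM of Abca1 and 58.5 to 78.8 CPM of Abcg1.

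Set against all genes, the counts were as follows, each over the 9 genes of the set that reached 50 CPM. In WT TAC against WT sham none was called higher and none lower, where 1.45% and 0.938% of 3730 genes were. The largest log2 ratios, on CPM + 10, were 0.91 for Trem2 and −0.91 for Cd36. The median log2 ratio of the 9 was 0.45, against 0.04 for all genes. In CD3e-/- TAC against CD3e-/- sham 3 were higher (Trem2, Gpnmb and Apoe, log2 ratios 1.05, 1.43 and 1.06) and 2 lower (Lpl and Cd36, −1.83 and −1.47), where 2.19% and 1.36% of 3738 genes were, and the medians were 0.40 and 0.06. Gpnmb, at 35.3 CPM in CD3e-/- sham and 112 CPM in CD3e-/- TAC, passed the 50 CPM limit through the TAC group alone. It could thus only be called higher. All 10 genes lay on the same side of equality in both genotypes. Whether the 2 genotypes differ in any of these ratios was not tested, and Trem2 and Apoe lay close to the limit in both.

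Without T cells at baseline, in CD3e-/- sham against WT sham, Gpnmb was called lower and no gene higher, where 0.219% and 0.301% of 3658 genes were (37.5% of the calls higher with the mean over cells of CPM, 57.9% as summed), and the medians were 0.20 and −0.00. Gpnmb stood at 35.3 against 87.5 CPM (0.403 times), so it passed the 50 CPM limit through WT sham alone and could only be called lower. The 5 cells with the most reads held 96.4% and 80.4% of its reads. Without them no gene of the set was called, but Gpnmb was then under the 50 CPM limit in both groups and could not be called. Its log2 ratio was −1.94 to −0.91 over the 12 alternatives of the processing. In CD3e-/- TAC against WT TAC none was called in either direction, where 0.463% were higher and 0.245% lower of 3673 genes. The lowest ratio was that of Lpl (0.658), and the medians were −0.26 and 0.02. In CD8 antibody TAC against WT TAC none was called either, where 0.109% were higher and 0.137% lower of 3653 genes (44.4% of these calls higher, 60.0% with the mean over cells of CPM). Its lowest ratios were 0.639 for Gpnmb and 0.703 for Lpl, with medians of −0.34 and 0.01. WT TAC is shared by the last 2 comparisons and WT sham by 2 others, so that they are not independent.

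**Figure D2:**
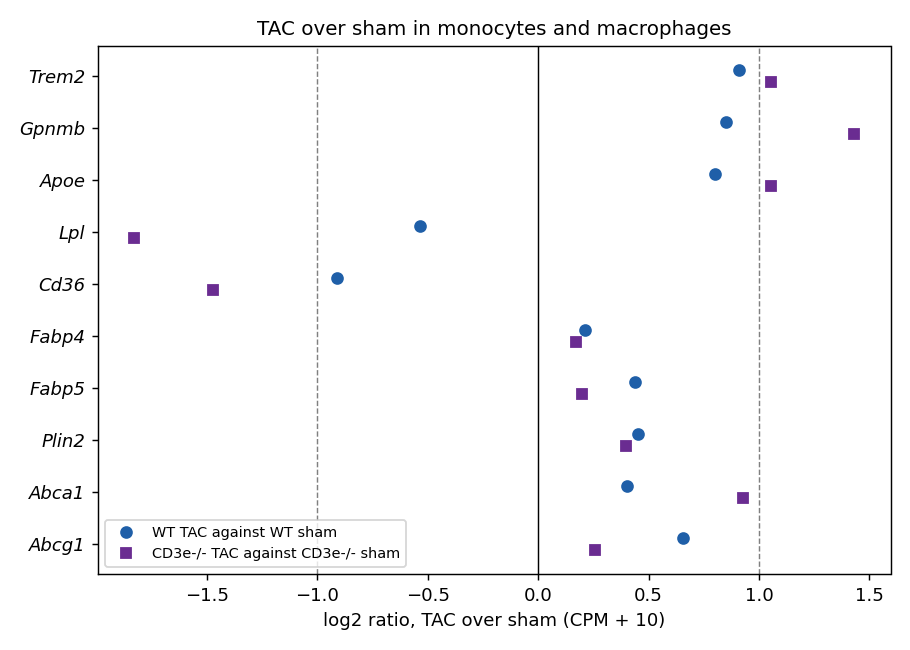
Ratio of TAC over sham in monocytes and macrophages (log2 of CPM + 10) for each gene, circles for WT and squares for CD3e-/- mice, dashed lines at 2-fold. Trem2, Gpnmb and Apoe lie right of 0.8 in both genotypes and Lpl and Cd36 left of −0.5.

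Other measures that moved with TAC stand beside these ratios. Of 8 immediate early and heat shock genes known to be induced while tissue is dissociated, Egr1, Atf3, Hspa1a and Hspa1b were called lower after TAC in both genotypes, Egr1 for example at 2562 and 2273 CPM in the sham groups and 551 to 804 CPM in the TAC groups. Non-leukocyte reads were low. The summed markers lay at 4.07 to 12.4 CPM for 6 endothelial genes, 3.03 to 8.11 CPM for 6 fibroblast genes except 67.3 CPM in CD3e-/- sham, mostly Dcn, and 5.55 to 7.66 CPM for the 2 of 4 adipocyte genes listed. No marker of these lists was at 0 in all groups. The 7 cardiomyocyte genes summed to 67.4 and 71.5 CPM in the sham groups and 34.2 to 38.1 CPM in the TAC groups. The part of either in the ratios was not tested. Of markers of other leukocytes, those of B cells summed to 16.6 to 27.2 CPM, of T cells to 1.48 to 24.1, of NK cells to 1.28 to 4.98, of dendritic cells to 11.1 to 18.7 and of neutrophils to 48.9 to 193 CPM. General macrophage genes summed to 3971 to 5191 CPM. Resident macrophage genes summed to 894 CPM in WT sham and 284 to 377 CPM in the other 4 groups, and monocyte genes to 553 and 903 CPM in the sham and 1266 to 1749 CPM in the TAC groups. Without the 48 to 113 cells of a group that had reads of 2 or more genes of such a list, the TAC to sham ratios of Trem2, Gpnmb, Apoe, Lpl and Cd36 kept their direction in both genotypes, with Cd36 then called lower in WT as well (log2 ratio −1.09). The ratio of Fabp5 in CD3e-/- mice then turned to −0.22.

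**Figure D3:**
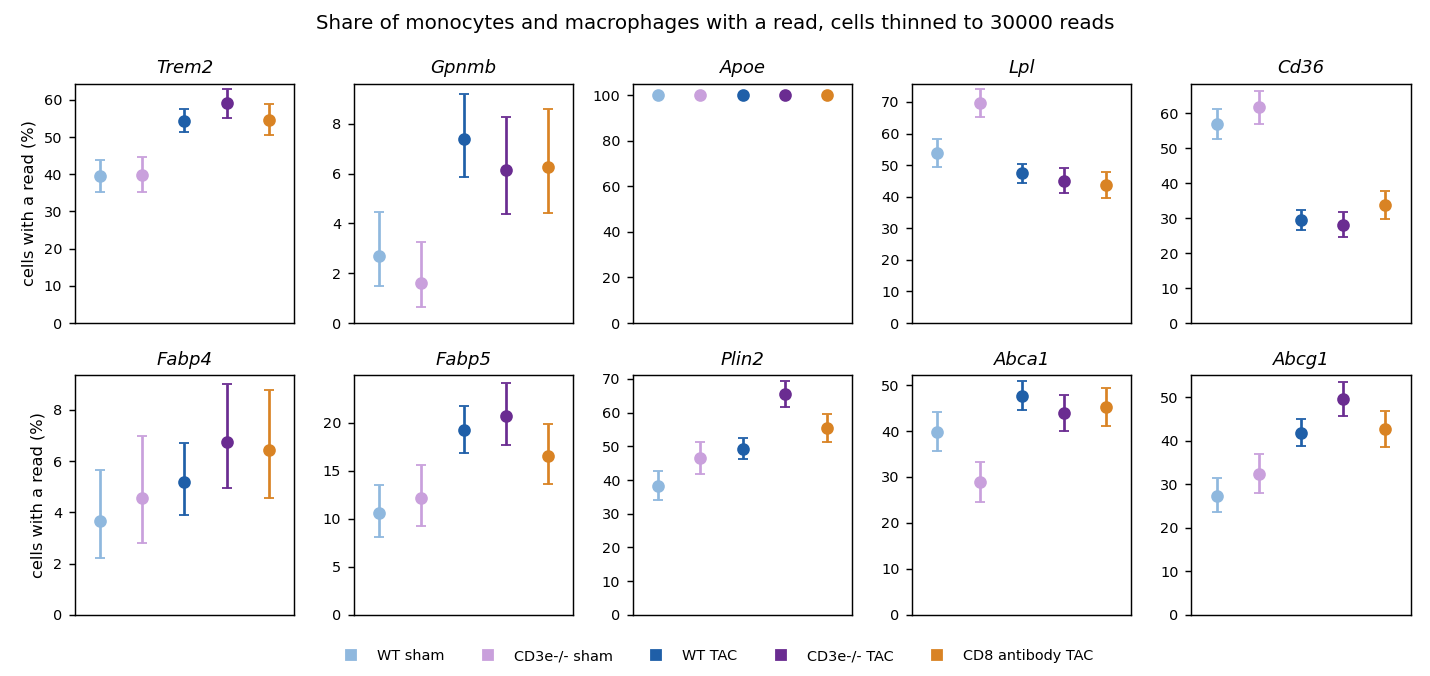
Share of monocytes and macrophages with a read of each gene (%), each cell thinned to 30000 reads, with exact 95% binomial intervals, groups in the order WT sham, CD3e-/- sham, WT TAC, CD3e-/- TAC, CD8 antibody TAC. Gpnmb is at 1.60 and 2.69% in the sham groups and at 6.13 to 7.41% in the TAC groups, and Cd36 at 56.9 and 61.8% against 28.0 to 33.6%.

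The genes differed in the classes that held them. Trem2 followed 1 order, Ccr2-low above Lyve1-positive above Ccr2-high above Ly6c2-high, in the 4 groups in which all 4 classes could be read, and Ccr2-low above Ccr2-high above Ly6c2-high in CD3e-/- TAC. In WT TAC the 4 values were 542, 401, 264 and 151 CPM. In CD3e-/- sham the top pair, 210 and 194 CPM, did not differ beyond counting error. Apoe was lowest in Ly6c2-high cells in WT sham, CD3e-/- sham, WT TAC, CD3e-/- TAC and CD8 antibody TAC alike, and highest in Lyve1-positive cells in both sham groups (15851 and 14027 CPM) and in Ccr2-low cells in the TAC groups (31296, 25596 and 23118 CPM).

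The TAC to sham ratios of Trem2 and Apoe were not confined to 1 class. Within the Ccr2-high class Trem2 was 2.09 times higher in WT and 2.28 times in CD3e-/- mice, and within the Ccr2-low class 2.27 and 2.43 times. For Apoe the same ratios were 2.85 and 2.39 in the Ccr2-high and 2.09 and 2.37 in the Ccr2-low class. These ratios were larger than over all monocytes and macrophages, but not every class gave a larger one. In Ly6c2-high cells the ratios of Trem2 and Apoe were 1.45 and 1.64 in WT and 2.55 and 2.77 in CD3e-/- mice. In Lyve1-positive cells of WT mice they were 2.72 and 1.42. The TAC groups held more of the Ly6c2-high cells, which were low in both RNAs, and the part of this in the ratios was not tested. With the 4 classes weighted equally, the 14 Lyve1-positive CD3e-/- TAC cells included, Trem2 was past 2-fold in WT mice too (log2 ratio 1.09), while in CD3e-/- mice Apoe (0.82) and Cd36 (−0.58) were no longer past it.

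Cd36 was highest in Lyve1-positive or Ccr2-low cells and lowest in Ly6c2-high cells in each group. The lower level after TAC was seen most in the Ccr2-high class, where Cd36 stood at 267 and 324 CPM after sham surgery and at 91.3, 81.4 and 75.7 CPM after TAC. The thinned share there was 52.5% (43.9 to 60.9%) and 62.4% (54.8 to 69.7%) against 20.7% (17.0 to 24.8%), 20.4% (15.4 to 26.2%) and 25.3% (19.4 to 31.9%). In the Ccr2-low class the WT values were close, at 391 and 356 CPM, while the CD3e-/- values were 595 and 245 CPM.

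Lpl was highest in Ccr2-high cells in both sham groups, at 1424 and 1990 CPM, against 687 and 1134 CPM in Ccr2-low cells. After TAC the Ccr2-high cells held 570, 526 and 514 CPM. In Ccr2-low cells the 2 genotypes went opposite ways, 687 to 849 CPM from WT sham to WT TAC and 1134 to 446 CPM from CD3e-/- sham to CD3e-/- TAC. This difference rests on 1 sample each and was not tested.

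Much of the Lpl RNA of the sham groups came from cells that also held Retnla, which encodes a resistin-like secreted protein of alternatively activated macrophages and was singled out after its values were seen. Monocytes and macrophages with at least 100 CPM of Retnla numbered 63 of 548 (11.5%, exact 95% interval 8.95 to 14.5%), 60 of 457 (13.1%, 10.2 to 16.6%), 36 of 1059 (3.40%, 2.39 to 4.68%), 15 of 654 (2.29%, 1.29 to 3.75%) and 10 of 591 (1.69%, 0.814 to 3.09%). They held 40.9% and 50.8% of all Lpl reads of the monocytes and macrophages in the sham groups and 9.77%, 4.66% and 6.56% in the TAC groups. Within them Lpl stood at 2000 CPM in WT sham and 3060 CPM in CD3e-/- sham, while Apoe stood at only 2369 and 2246 CPM. Without them Lpl was 652, 960, 588, 396 and 416 CPM, with 866 and 1259 CPM in the Ccr2-high cells of the sham groups instead of 1424 and 1990 CPM. The TAC to sham ratio was then 0.901 instead of 0.687 in WT mice and 0.412 instead of 0.276 in CD3e-/- mice. The Cd36 ratio without them was 0.460 in WT and 0.387 in CD3e-/- mice, with Cd36 then called lower in both. Trem2 and Apoe were then no longer called in CD3e-/- mice (log2 ratios 0.93 and 0.78).

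**Figure D4:**
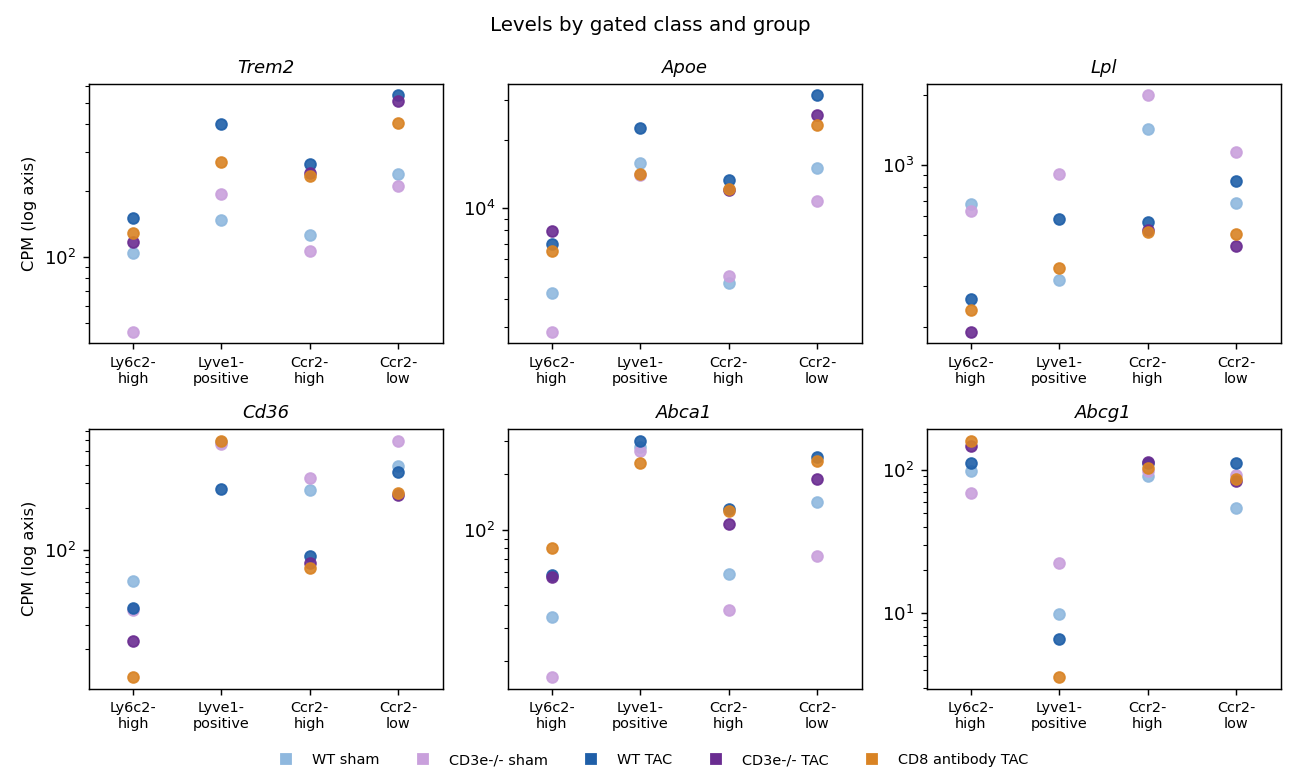
Levels of 6 of the genes in the 4 gated classes (CPM on a log axis), 1 point per group, classes with fewer than 20 cells left out. Trem2 and Apoe are lowest in Ly6c2-high cells, Lpl of the 2 sham groups is highest in Ccr2-high cells (1424 and 1990 CPM), and Abcg1 is lowest in Lyve1-positive cells, where Abca1 is at 230 to 301 CPM.

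Between the Lyve1-positive and Ly6c2-high classes the 2 cholesterol exporters were distributed in opposite ways. Over thinned single cells of a group their Spearman correlation was near 0 (−0.032 to 0.095). Abca1 stood at 277, 265, 301 and 230 CPM in the Lyve1-positive cells of WT sham, CD3e-/- sham, WT TAC and CD8 antibody TAC, and was lowest in Ly6c2-high cells (16.5 to 80.7 CPM). Abcg1 stood at 9.95, 22.6, 6.61 and 3.61 CPM in the same Lyve1-positive cells and at 69.2 to 159 CPM in Ly6c2-high cells. In CD3e-/- sham, with the lowest Abca1 level over all monocytes and macrophages, the Ccr2-low cells held 72.6 CPM against 142 CPM in WT sham, while the Lyve1-positive cells held 265 and 277 CPM. Of the fatty acid carriers, Fabp4 was highest in Ccr2-low cells in each group, at 25.6, 31.8, 29.4, 51.4 and 38.8 CPM. Fabp5 stood there at 207, 201, 344, 343 and 187 CPM. In Ly6c2-high cells it stood at 297, 183, 73.4, 69.1 and 186 CPM, above the Ccr2-low cells in WT sham, where 1 of 24 cells held 49.9% of the reads. Fabp5 was at no more than 9.03 CPM in Lyve1-positive cells except for 72.5 CPM in WT TAC. Plin2 had no steady order, with class levels that spanned at most 2.14-fold within a group. Its thinned share in Ccr2-low cells was 29.0% (23.8 to 34.7%), 35.0% (28.4 to 42.0%), 45.7% (40.7 to 50.8%), 64.2% (57.6 to 70.4%) and 50.7% (43.8 to 57.6%).

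Cells with much Gpnmb also held much Fabp5, although Fabp5 was read in 553 monocytes and macrophages and Gpnmb in 176. Monocytes and macrophages with at least 100 CPM of Gpnmb numbered 13 (2.37%), 7 (1.53%), 75 (7.08%), 38 (5.81%) and 35 (5.92%), of which 9, 3, 57, 28 and 24 were Ccr2-low. In them Fabp5 stood at 1491, 1883, 1113, 1312 and 996 CPM, 17.4 to 28.1 times its level in the other monocytes and macrophages of the same group. Trem2 was 2.55 to 4.63 times, Apoe 2.004 to 3.31 times and Plin2 1.78 to 3.78 times higher in them. Abcg1 was 0.888 to 2.52 times its level in the rest, and the 2 sham groups rest on 13 and 7 cells. These cells were also deeper, with a median of 120859 to 202535 reads against 72907 to 125822 in the rest. Over single cells of a group, thinned to 30000 reads, Spearman's correlation of Gpnmb with Fabp5 was 0.378 to 0.511, with the highest median of the 45 pairs (0.476), while that of Trem2 with Fabp5 was 0.0154 to 0.185. The cells share a library, and the values describe these cells only.

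**Figure D5:**
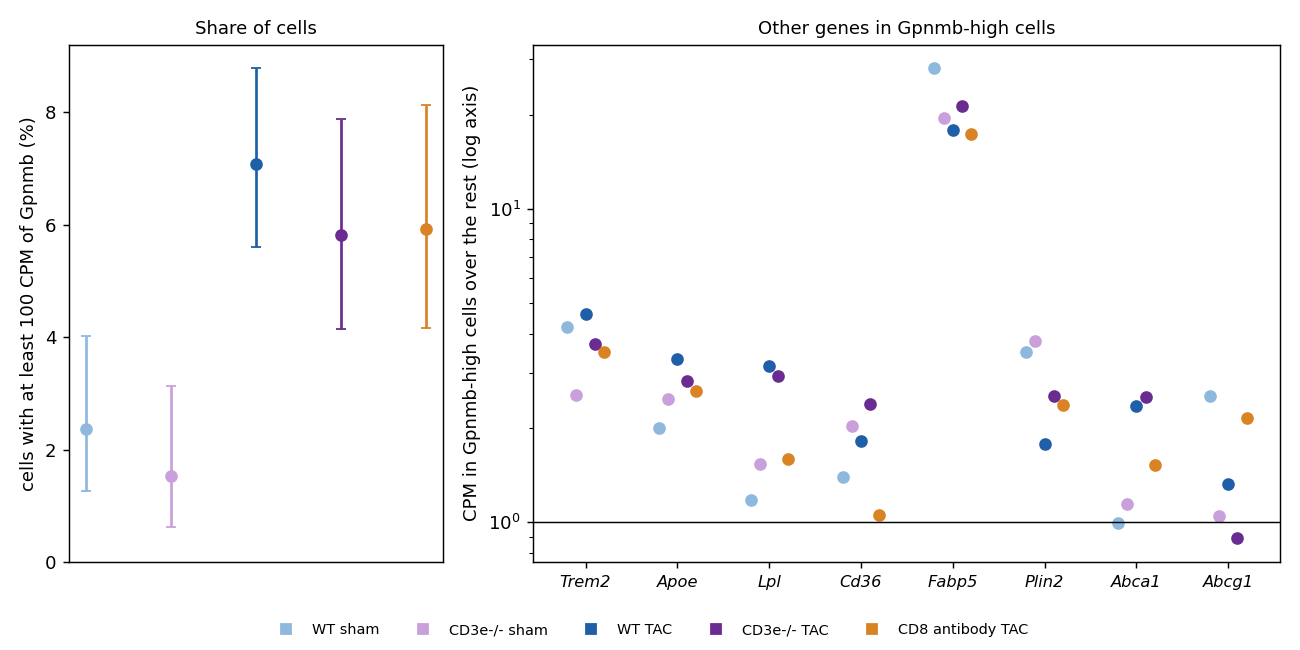
Left, share of monocytes and macrophages with at least 100 CPM of Gpnmb (%), with exact 95% binomial intervals. Right, CPM of 8 other genes in those cells over the rest of the same group (log axis, line at 1), 1 point per group. Fabp5 is 17.4 to 28.1 times higher in each group and no other gene shown passes 5-fold.

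Likeness was also read over 34 profiles, each the summed reads of 1 class in 1 group, for 6782 genes. These profiles share a library and classes, and r is Pearson's correlation of log2(CPM + 10). Trem2 was closest to Lgmn, a lysosomal protease (r = 0.961), to Apoe (0.961) and to the complement receptor gene C3ar1 (0.957), and Apoe was closest to Trem2, Lgmn and the transcription factor gene Maf (0.953). Gpnmb was closest to the secreted kinase gene Fam20c (0.872), to Nceh1, a cholesteryl ester hydrolase (0.842), and to Fabp5 (0.822). Fabp5 was closest to Spp1, the osteopontin gene (0.901), Fnip2 (0.859) and Nceh1 (0.857). Lpl was closest to Lipa, the lysosomal acid lipase (0.856), Axl and Rab7b, and Cd36 to the transporter gene Slco2b1 (0.914), Pmp22 and Cdk6. Plin2 was closest to Sdcbp (0.915), Anxa4 and Ywhag, and Fabp4, the least matched, to Zmynd15 (0.760), Cadm1 and Rnf128. Abca1 was closest to Sesn1 (0.897), Tgfbr2 and Serinc3, and Abcg1 to Sema4d (0.907), Pfkl and Abi3. Between themselves, Abca1 and Abcg1 gave r = −0.387 and Cd36 and Abcg1 r = −0.510.

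Other genes of the same pathways were read from lists. Of 12 TREM2 partner and programme genes, 9 were tested, and Ctsd, the lysosomal protease cathepsin D, was the one called higher after TAC in both genotypes, with 652, 782, 1947, 2080 and 1369 CPM. Tyrobp, the adaptor of TREM2, stood at 1627 to 1993 CPM and was called in no comparison. Spp1 was called lower in CD3e-/- sham than in WT sham, at 496 against 1215 CPM. Of 8 lipoprotein uptake genes, 4 to 5 were tested. The scavenger receptor Msr1 was called higher in CD3e-/- TAC than in CD3e-/- sham (180 to 421 CPM). Marco, another scavenger receptor, stood at 2.42 CPM in CD3e-/- sham, 6.28 CPM in WT TAC and 53.7 CPM in CD3e-/- TAC. Marco was called higher in CD3e-/- TAC than in both, but it passed the 50 CPM limit through that group alone and could only be called higher. Olr1, at 5.41, 6.96 and 41.8 CPM in the same groups, stayed under the limit. In WT mice Msr1 stood at 176 and 303 CPM. Of 11 genes of LXR, the oxysterol receptor, and its targets, 4 to 5 were tested. Apoc2, an apolipoprotein that activates the lipase encoded by Lpl, was the one called higher after TAC in both genotypes. It stood at 15.5, 25.5, 86.9, 79.5 and 74.8 CPM and passed the 50 CPM limit through the TAC groups alone. In these comparisons Apoc2 could thus only be called higher. These lists hold 1 to 9 tested genes each, and the shares of all genes called were 1.45% higher and 0.938% lower after TAC in WT and 2.19% and 1.36% in CD3e-/- mice, so that the absence of calls in so short a list is near that background. No gene was called in any comparison among 5 genes of lysosomal cholesterol release and esterification, 13 of PPAR, droplets and fatty acid use and 8 of cholesterol synthesis, of which 5, 3 to 4 and 1 to 4 reached the 50 CPM limit. The median log2 ratio of TAC over sham, in WT and then in CD3e-/- mice, was 0.18 and 0.22 for the TREM2 list, 0.09 and 0.49 for lipoprotein uptake and −0.05 and 0.10 for LXR. It was 0.51 and 0.16 for lysosomal cholesterol, −0.41 and −0.13 for PPAR and droplets, and 0.25 and −0.25 for cholesterol synthesis, the first of these resting on 1 tested gene. All tested genes had medians of 0.04 and 0.06, and the dissociation genes of −0.98 and −1.01.

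Outside the monocytes and macrophages the genes differed. Cd209a-high cells, which share genes with dendritic cells, held 4.53 to 32.2 CPM of Trem2, 9.49 to 34.8 CPM of Cd36 and no more than 2.75 CPM of Gpnmb. Plin2 and Abcg1 stood out there, at 82.6 to 144 and 56.7 to 104 CPM. Ungated cells held more Fabp4 than the monocytes and macrophages in both sham groups and in WT TAC, at 57.1, 68.0 and 24.1 CPM, and 18.0 and 2.24 CPM in CD3e-/- TAC and CD8 antibody TAC. Only 8 of 271, 8 of 168 and 12 of 338 ungated cells had a Fabp4 read in the first 3 of these groups, and 1 cell held 80.8%, 32.6% and 22.8% of the reads. The ungated cells were not free of the other genes either. Fabp5 stood there at 254 CPM in WT TAC and 272 CPM in CD3e-/- TAC, where 1 cell held 23.4% and 53.4% of the reads, Lpl at 233 to 495 CPM and Plin2 at 112 to 262 CPM.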

How the data were processed

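Hearts were digested, CD45+ cells were enriched with magnetic beads, and 1 pooled cDNA library was prepared on the BD Rhapsody system by TAS-Seq. Per the labels, the submitters' processing notes name cutadapt 2.10, Bowtie2 2.4.2 and the build GRCm38. The deposited matrix holds counts of reads per gene and cell barcode, with the hashtag in the barcode name. The values are whole reads after filtering of barcodes and error correction of counts, as the authors named the file, with no scaling visible, so cells of low signal for a gene may have been set to 0. Of its 5363 columns 40 were doublets and 8 had no hashtag. These 48 were left out. Cells with at least 500 genes and a mitochondrial share of at most 0.4 were kept. No further doublet call was made. Reads were summed per group and gated class and divided by the summed reads of all genes (CPM). Ratios were taken on log2(CPM + 10) among genes with at least 50 CPM in 1 of the 2 groups, and called past 2-fold. With 1 sample per group there was no test. Shares of cells used cells thinned to 30000 reads (520, 437, 1026, 636 and 574 monocytes and macrophages were deep enough, of 548, 457, 1059, 654 and 591), with exact Clopper-Pearson intervals, and unthinned shares differed by less than 10 percentage points. Levels were compared within a gene only, since the files give no length. Intervals cover counting error alone. Named genes were the 10 genes in every comparison, the 3 genes most like each over the profiles, list genes past 2-fold, and genes that check the labels. The marker lists (B cell, macrophage, resident macrophage, monocyte, dendritic, T, NK, neutrophil, endothelial, fibroblast, cardiomyocyte, adipocyte) were used to check the gates. Genes, gates and lists were chosen with earlier results of these data known. The ratio and call steps were tested on simulated counts. Alternatives were other scalings, added CPM, gates, filters and folds, plus 4 sets of cells chosen after seeing the data. Computations ran in Python 3.11.15 with pandas 2.3.3, scipy 1.17.1 for intervals, numpy 2.4.6, and figures in matplotlib 3.10.9.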

Additional observations from a re-analysis of the deposited data

Results flagged for a closer look

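4 results were marked because the TAC to sham ratio (log2 of CPM + 10) had opposite signs in WT and CD3e-/- mice and the gene reached 50 CPM in that class in 1 of these 4 groups. Gpnmb in Ccr2-high cells (0.58 in WT and −1.20 in CD3e-/- mice) and Fabp4 in Ccr2-high (1.00 and −0.45) and Ly6c2-high cells (0.77 and −0.38) also had opposite signs, below that level. Each group is 1 sample, and none of the differences was tested. Lpl in Ccr2-low cells differed by −1.63 (CD3e-/- minus WT), from 0.30 in WT and −1.33 in CD3e-/- mice. Fabp5 in Ccr2-high cells differed by −1.47, from 1.15 and −0.32. Abcg1 in Ccr2-low cells differed by −1.03, from 0.92 and −0.12. Gpnmb in Ly6c2-high cells differed by 4.43, from −4.41 and 0.02, where the WT sham value came from 1 of 24 cells.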

How the results depend on the processing

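No gene called past 2-fold changed direction under any of the 12 alternatives, and of the 10 genes in WT TAC against WT sham and in CD3e-/- TAC against CD3e-/- sham, 9 and 8 kept their sign in all of them (Fabp4 in both and Fabp5 in CD3e-/- did not). The count of genes called moved as follows, with the larger moves given. For WT TAC against WT sham (0) it was 1 with the mean over cells of CPM (Gpnmb), 1 with the 4 classes weighted equally (Trem2), 5 at 1.5-fold and, under alternatives chosen after seeing the data, 1 without cells with non-leukocyte reads (Cd36), 1 without Retnla-high cells (Cd36), 2 without the 5 cells of each group with the most reads of the gene (Gpnmb and Cd36) and 2 over all kept cells (Trem2 and Gpnmb). Leaving out those 5 cells took unequal parts of the Gpnmb reads, 80.4% and 96.4% in the sham groups and 32.8% to 53.8% in the TAC groups. For CD3e-/- TAC against CD3e-/- sham (5) the count was 3 with the mean over cells (Trem2 and Apoe lost), 3 with the classes weighted equally (Apoe and Cd36 lost) and 3 without Retnla-high cells (Trem2 and Apoe lost). Abca1, not called at first, had log2 ratios of 0.54 to 1.07 in this comparison and so passed 2-fold under part of the alternatives. For CD3e-/- sham against WT sham (1) the count was 0 with the mean over cells, 0 over all kept cells, 0 without the 5 top cells and 3 at 1.5-fold. Where the count was 0, Gpnmb was under the 50 CPM limit in both groups and could not be called. In WT sham and CD3e-/- sham it stood at 42.4 and 17.5 CPM as the mean over cells and at 47.5 and 20.7 CPM over all kept cells. Its log2 ratio was −1.94 to −0.91 over the 12 alternatives. For CD3e-/- TAC against WT TAC (0) the count was 1 at 1.5-fold (Lpl). For CD8 antibody TAC against WT TAC (0) it was 1 without the 5 top cells and 1 at 1.5-fold (Gpnmb). The cause was not tested. No paired analysis was possible because the labels give no replicate numbers. Halved or doubled gates kept every count within 1.5 times. The number of cells with a read limits Gpnmb and Fabp4, which rest on few cells in the sham groups.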
